A study of Canis lupus familiaris with 8 samples.

Results

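The genes described here are 10 components of the circadian clock: the period genes PER1, PER2 and PER3, the cryptochrome genes CRY1 and CRY2, the REV-ERB genes NR1D1 and NR1D2, the DEC genes BHLHE40 and BHLHE41, and the output gene DBP. They were taken by symbol from the 37952 genes of the count table, and all 10 were present and passed the filter on low counts. In the mammalian clock, the transcription factors CLOCK and BMAL1 switch on the PER and CRY genes, whose proteins return to the nucleus and block that same pair. The REV-ERB receptors form a further loop by repressing the BMAL1 gene, and the DEC proteins compete with CLOCK and BMAL1 at their binding sites. Besides this daily cycle, PER1 and PER2 are known as genes that acute signals such as serum or cyclic AMP can induce, and kidney epithelial cells are among the tissues with a clock of their own.

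RNA came from the MDCK GII line of dog kidney epithelium, with no transgene or knockout named in the labels. The cells were grown overnight as monolayers on a collagen-coated silicone membrane. In the stretch group (4 wells), vacuum pulled the membrane and the monolayer to 18% equi-biaxial strain for 2 hours, and the control group (4 wells) was unstrained. The submitters describe the wells of a group as technical quadruplicates distributed over several stretch devices, so p-values measure the spread between wells of 1 line. The labels give 1 time point, so levels and changes were measured but no rhythm or phase.

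Libraries held 27047358 to 32478887 counts. All 8 listed markers of kidney epithelium were detected, with a summed level of 5036 to 5617 CPM (read counts scaled to a common library total) in control wells and 5339 to 5446 CPM in stretch wells, although CDH16, the kidney cadherin, was low at 1.27 ± 0.421 CPM (SD, n = 4 control wells). The 6 fibroblast markers summed to 1.80 to 4.22 CPM in control and 2.92 to 3.88 CPM in stretch wells, with COL1A2, DCN and LUM at 0 in every well. The 4 endothelial markers summed to 1.54 to 2.27 and 1.26 to 2.30 CPM. Of the 5 immune markers, PTPRC, CD3E and LYZ were at 0 in every well, and the list's sum of 972 to 1042 CPM in control and 1011 to 1048 CPM in stretch wells was nearly all CD74, the invariant chain of MHC class II.

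The clock genes differed widely in level in unstrained cells. Levels are compared between genes as CPM per kb of exon, which corrects for gene length. BHLHE40 was highest, at 84.7 ± 9.03 CPM per kb (SD, n = 4 control wells), above 92.6% of the 14571 tested genes. BHLHE41 followed at 24.1 ± 3.99, then CRY1 at 8.85 ± 0.827, NR1D2 at 7.94 ± 1.25 and PER1 at 5.95 ± 0.364 CPM per kb. Further down the order were CRY2 at 1.91 ± 0.569, NR1D1 at 1.25 ± 0.288, PER3 at 0.873 ± 0.0591, PER2 at 0.729 ± 0.106 and DBP at 0.557 ± 0.103 CPM per kb. The ratio of the first to the last was 152. The control wells of neighbours in this order overlapped for CRY1 and NR1D2, and for every neighbouring pair from CRY2 down to DBP, so the order within those runs was not resolved. BHLHE40, BHLHE41, NR1D2 and PER1 each stood clear of the next gene below. Among the activators, NPAS2 was at 4.14, CLOCK at 2.99, ARNTL (the gene of BMAL1) at 2.13 and ARNTL2 at 1.51 mean CPM per kb, so the clock genes down to PER1 in the order were above all 4 in mean level, and NR1D1, PER3, PER2 and DBP below all 4. The bars for NPAS2, CLOCK, ARNTL and ARNTL2 in the plot of levels give their ranges.

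**Figure D1:**
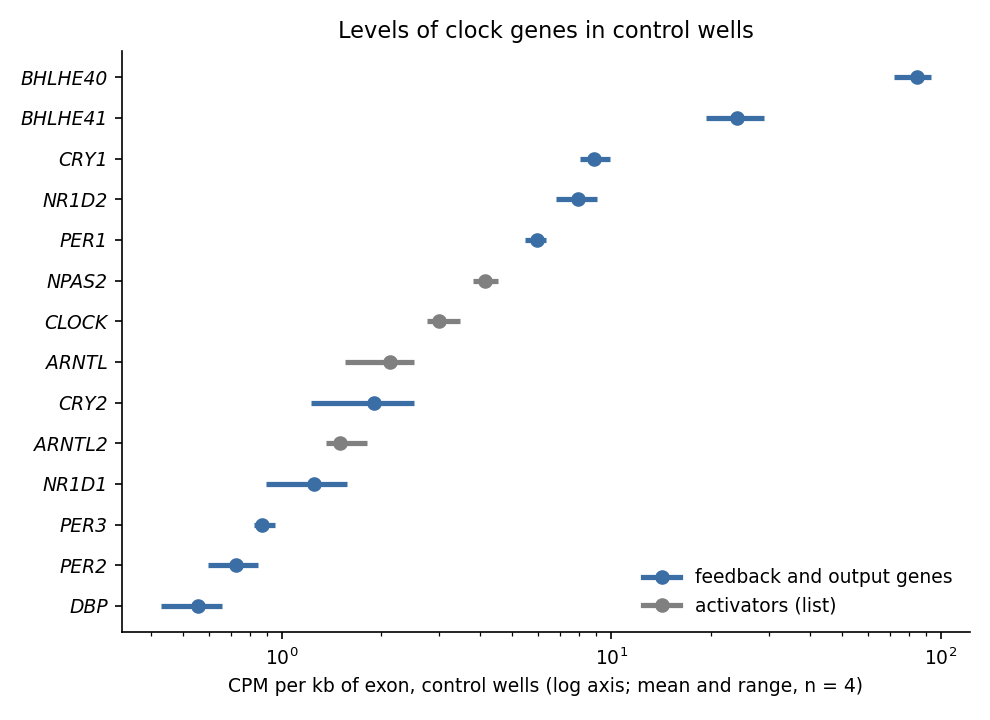
Level of each clock gene in the 4 control wells as TMM-normalised CPM per kb of exon, on a log axis, with the mean as a point and the range over wells as a bar. Feedback and output genes are in blue and listed activators in grey. RORB was at 0 and is not drawn. BHLHE40 lies at 84.7 and DBP at 0.557 CPM per kb.

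PER2 rose after stretch in the fit that pairs wells by replicate number, a pairing that the labels do not state. PER1 was higher in every stretch well than in every control well without passing that fit. The other 8 clock genes did not pass, and their groups overlapped. Without pairing, 0 of the 10 clock genes had an adjusted p under 0.05, as did 0% of the 14571 tested genes (edgeR's quasi-likelihood test, Benjamini-Hochberg adjustment). DESeq2 called 1 of 10, against 0.275% of all tested genes. At an unadjusted p under 0.05 in edgeR there were 2 of 10, against 3.97% of all tested genes. With the replicate number as a block, 1 of 10 passed, against 0.7% of all tested genes, and 3 of 10 had an unadjusted p under 0.05, against 8.89%. Of the 10 genes, 5 had a log2 change above 0 without the block, against 48.2% of all tested genes, and their median log2 change was 0.069 against -0.0032 over all tested genes.

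PER2 encodes a period protein, a core repressor of CLOCK and BMAL1, and lies on chromosome 25 (48998242 to 49043270, minus strand). Its level in control wells 1 to 4 was 5.21, 5.73, 4.74 and 4.04 CPM, with 130 to 177 counts. In stretch wells 1 to 4 it was 8.69, 6.24, 8.68 and 7.26 CPM, from 169 to 253 counts. Every stretch well was above every control well, but stretch well 2 lay close to control well 2. The mean went from 4.93 ± 0.717 to 7.72 ± 1.19 CPM (SD, n = 4 each), a 1.57-fold difference. In bulk RNA, a rise in every cell and a rise in part of the cells cannot be told apart. The log2 change was 0.65 ± 0.15 (SE) without the block, with a 95% interval of 0.33 to 0.97 (edgeR, adjusted p = 0.422). With the block it was 0.65 ± 0.13, with an interval of 0.36 to 0.93 (edgeR, adjusted p = 0.0299). DESeq2 without the block also called it (adjusted p = 0.0191), as it did 0.275% of the tested genes. The log2 differences of pairs 1 to 4 were 0.73, 0.12, 0.86 and 0.83, so 3 pairs were alike and pair 2 was much smaller. When pairs were left out of the blocked fit, PER2 lost its call without pair 1 or pair 4 (edgeR, adjusted p = 0.262 and 0.207), which leaves 3 pairs, and its log2 change was then 0.61 and 0.58.

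PER1, the period gene known for a fast response to acute signals, lies on chromosome 5 (33163138 to 33177939, minus strand). Control wells 1 to 4 had 29.5, 26.7, 30.98 and 28.9 CPM, from 804 to 930 counts. Stretch wells 1 to 4 had 31.1, 34.7, 36.4 and 34.3 CPM, from 907 to 1107 counts. The groups did not overlap, although stretch well 1 was above the highest control well by a narrow margin. The mean was 29.0 ± 1.78 CPM in control and 34.1 ± 2.17 CPM in stretch wells, a 1.18-fold difference. In edgeR without the block, the log2 change was 0.23 ± 0.07 (SE), its 95% interval 0.08 to 0.39 and the adjusted p 0.935. The block gave 0.23 ± 0.06, an interval of 0.11 to 0.36 and an adjusted p of 0.099. PER1 therefore did not pass in either fit, although its intervals, which are for a single gene, lay above 0. PER1 and PER2 were the only clock genes with groups that did not overlap, which was the case for 2.55% of all tested genes, and the only clock genes that differed in the same direction in 4 of 4 pairs, which was the case for 16.3%.

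PER3, the third period gene, lies on chromosome 5 (61929781 to 61983527, plus strand). Its control wells ran from 4.37 to 5.08 CPM and its stretch wells from 3.75 to 4.77 CPM, and the groups overlapped. The log2 change was -0.07 ± 0.13 (SE), with a 95% interval of -0.36 to 0.21 without the block (edgeR, adjusted p = 0.9995). This interval lies below the PER2 interval of 0.33 to 0.97, but the difference between the genes was not itself tested.

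**Figure D2:**
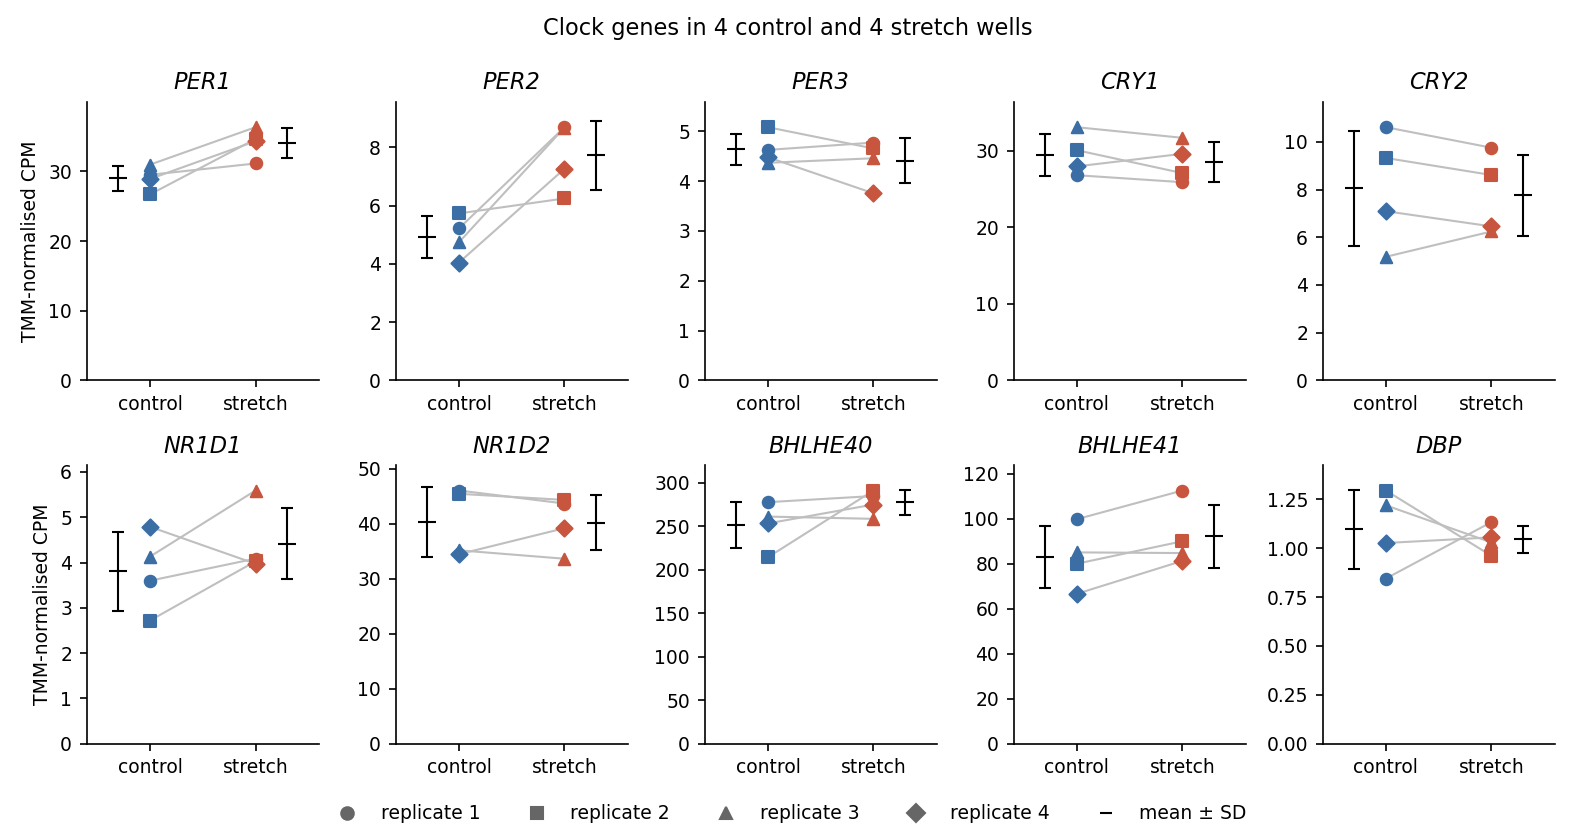
TMM-normalised CPM of the 10 clock genes in each well, with control wells in blue, stretch wells in red, a marker shape for each replicate number and grey lines joining wells with the same number. Black bars are mean ± SD (n = 4). The axes start at 0. PER2 and PER1 are the panels in which the groups do not overlap.

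The cryptochromes did not pass in either fit. CRY1 and CRY2 encode the partners of the period proteins in the repressor complex. CRY1 on chromosome 10 (32735159 to 32847092, plus strand) had 26.8 to 33.1 CPM in control and 25.9 to 31.7 CPM in stretch wells. Its log2 change was -0.05 ± 0.09 (SE), with a 95% interval of -0.23 to 0.14 without the block and -0.17 to 0.08 with it (edgeR, adjusted p = 0.9995 and 0.92). CRY1 overlaps MTERF2 on the same strand, with 336 exon bases in common, so how reads there were assigned is uncertain. MTERF2, a mitochondrial transcription termination factor gene, had a log2 change of -0.09 ± 0.12 and did not pass (edgeR, adjusted p = 0.9995).

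CRY2 on chromosome 18 (43963597 to 43998926, minus strand) varied more between wells than between groups. Control wells 1 to 4 had 10.6, 9.32, 5.18 and 7.09 CPM. Stretch wells 1 to 4 had 9.75, 8.61, 6.24 and 6.45 CPM. In both groups the wells numbered 1 and 2 were the high ones. Strain went with a log2 change of -0.05 ± 0.22 (SE) in the unblocked fit (95% interval -0.54 to 0.43; edgeR, adjusted p = 0.9995). The blocked fit gave -0.04 ± 0.11 (-0.27 to 0.19; edgeR, adjusted p = 0.973).

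The REV-ERB genes, nuclear receptors that bind haem and repress transcription, did not pass either. NR1D1 on chromosome 9 (22411920 to 22419594, plus strand) had 3.60, 2.72, 4.13 and 4.79 CPM in control wells 1 to 4. In stretch wells 1 to 4 it had 4.09, 4.03, 5.59 and 3.97 CPM. It was higher with stretch in pairs 1 to 3 and lower in pair 4, and the groups overlapped. Its log2 change was 0.21 ± 0.19 (SE), with a 95% interval of -0.19 to 0.62 without the block (edgeR, adjusted p = 0.9995) and -0.11 to 0.55 with it (edgeR, adjusted p = 0.793). With 84 to 163 counts per well, this interval leaves room for changes in either direction. NR1D2 on chromosome 23 (20099576 to 20128270, minus strand) had 46.0, 45.4, 35.1 and 34.4 CPM in control wells 1 to 4. In stretch wells 1 to 4 it had 43.6, 44.3, 33.6 and 39.2 CPM. As for CRY2, the wells numbered 1 and 2 were high in both groups. The group means were 40.2 ± 6.32 and 40.2 ± 4.94 CPM, and the 95% interval of the log2 change with the block was -0.12 to 0.12 (edgeR, adjusted p = 0.999).

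The DEC genes encode repressors that are themselves induced by many acute signals. BHLHE40 on chromosome 20 (12718100 to 12723747, minus strand) had 214 to 278 CPM in control wells, with a mean of 252 ± 26.8 CPM. Its stretch wells had 258 to 291 CPM, with a mean of 277 ± 14.2 CPM. The groups overlapped, with 3 of 4 pairs higher, and the log2 change was 0.14 ± 0.07 (SE) both without and with the block (edgeR, adjusted p = 0.9995 and 0.671). Pairs 1 to 4 differed by 0.036, 0.44, -0.014 and 0.12 in log2, and without pair 2 the blocked log2 change was 0.050. BHLHE41 on chromosome 27 (25081155 to 25085938, minus strand) had 99.7, 79.9, 84.97 and 66.6 CPM in control wells 1 to 4. In stretch wells 1 to 4 it had 112, 89.9, 84.7 and 81.2 CPM. Pairs 1, 2 and 4 were higher with stretch, and pair 3 was nearly level. The unblocked fit gave a log2 change of 0.15 ± 0.13 (95% interval -0.14 to 0.45; edgeR, adjusted p = 0.9995). The blocked fit gave 0.16 ± 0.05 (0.05 to 0.26; edgeR, adjusted p = 0.238). It passed in the blocked fit when pair 3 was left out (edgeR, adjusted p = 0.0274), at a log2 change of 0.21. Without pair 1, 2 or 4 it did not pass (edgeR, adjusted p = 0.625, 0.478 and 0.566).

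DBP, a PAR bZIP transcription factor and a direct output of CLOCK and BMAL1, lies on chromosome 1 (108348719 to 108354835, plus strand). It was the clock gene with the fewest reads. Control wells held 23 to 40 counts and stretch wells 26 to 34. Its mean was 1.10 ± 0.202 CPM in control and 1.04 ± 0.0713 CPM in stretch wells, and the groups overlapped. The 95% interval of its log2 change, -0.57 to 0.43 without the block, includes a change as large as the PER1 estimate in either direction (edgeR, adjusted p = 0.9995).

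**Figure D3:**
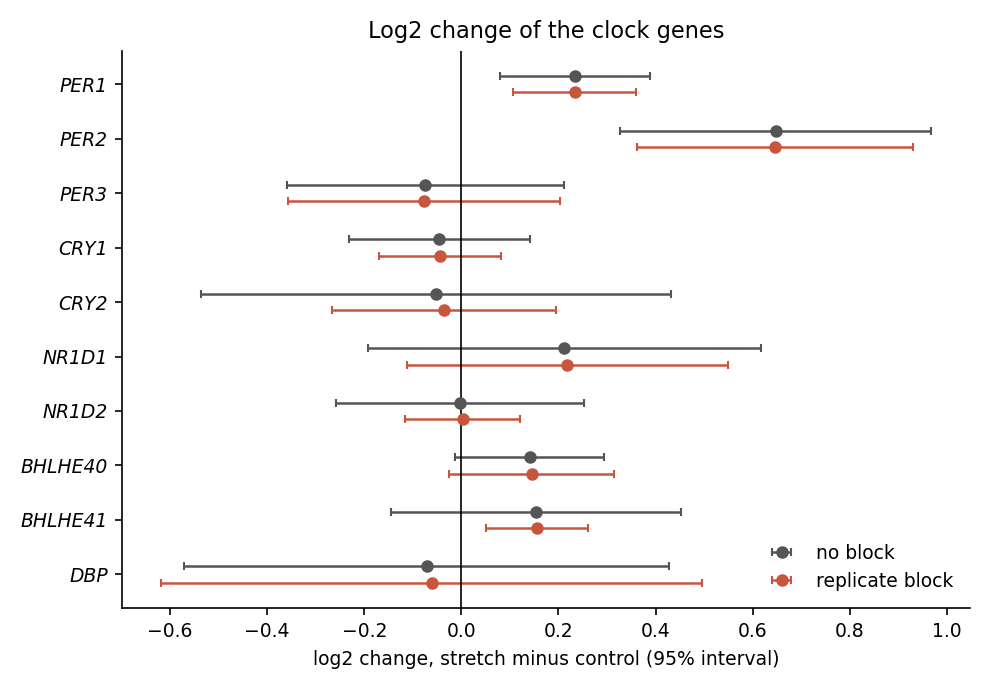
Log2 change of each clock gene, stretch minus control, from edgeR without the block (grey) and with the replicate number as a block (red), with 95% intervals for single genes that carry no adjustment for the number of genes. PER2 lies at 0.65 in both fits and PER1 at 0.23, while the intervals of PER3, CRY1, CRY2, NR1D1, NR1D2, BHLHE40 and DBP include 0 in both.

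The other clock components were read from lists, with WEE1 the single gene that passed in edgeR with the block or in DESeq2 without it. None of the 4 tested activators (CLOCK, ARNTL, ARNTL2 and NPAS2) passed in these or in edgeR without the block. Of these, 2 had a log2 change above 0 and 2 below, with a median of -0.0026. CLOCK, the partner of BMAL1, had the smallest p, with 33.0 ± 3.69 CPM in control and 35.7 ± 3.47 CPM in stretch wells and a log2 change of 0.11 ± 0.09 (SE; edgeR, adjusted p = 0.9995, and 0.561 with the block). NPAS2, which can take the place of CLOCK, had a log2 change of -0.05 ± 0.09 (edgeR, adjusted p = 0.9995). RORB, from the ROR receptors that activate BMAL1, was at 0 in all 8 wells.

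Of the kinases, ubiquitin ligases and partner proteins that set the lifetime and activity of PER and CRY, 10 were tested and 0 passed in either edgeR fit or in DESeq2 without the block, with 5 log2 changes on each side of 0, from -0.09 to 0.07, and a median of 0.0025. TIMELESS, which has roles in replication as well as a link to the clock, had the smallest p, with a log2 change of -0.09 ± 0.11 (SE) and 4 of 4 pairs lower (edgeR, adjusted p = 0.9995, and 0.671 with the block). BTRC, an F-box protein that marks phosphorylated PER for destruction, had a log2 change of 0.07 ± 0.09 (edgeR, adjusted p = 0.9995). CSNK1D, CSNK1E and CSNK1A1, casein kinase genes, had 128 ± 6.28, 31.4 ± 4.39 and 455 ± 24.7 CPM in control wells. They are named for their role in PER phosphorylation and not for their values.

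Of 6 tested output factors, 1 fell in edgeR with the block and in DESeq2 without it, which called 0.7% and 0.275% of all tested genes. In edgeR without the block 0 passed, with a median log2 change of -0.048. The gene that fell was WEE1, a mitotic kinase gene that CLOCK and BMAL1 can drive in liver. It was lower in 4 of 4 pairs, at 122 ± 1.82 CPM in control and 98.4 ± 5.76 CPM in stretch wells (edgeR, adjusted p = 0.114 without the block and 0.00246 with it; DESeq2 without the block, adjusted p = 7.00e-05). NFIL3, a repressor that competes with DBP for its binding sites, had 13.2 ± 2.52 CPM in control and 16.0 ± 2.11 CPM in stretch wells, higher in 4 of 4 pairs. The log2 change of NFIL3 was 0.27 ± 0.13 (SE) unblocked and 0.28 ± 0.08 blocked, and it passed in neither fit (edgeR, adjusted p = 0.9995 and 0.168).

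Transcripts known to follow the clock in kidney tubules gave 4 tested genes, of which 0 passed in either edgeR fit or in DESeq2 without the block and 2 were on each side of 0, with a median log2 change of -0.077. AQP4 and SLC14A2 were at 0 in all wells, and SLC9A3 and AQP2 were too low to be tested. SGK1, a kinase that raises sodium uptake, had 239 ± 6.91 CPM in control and 261 ± 6.51 CPM in stretch wells, with groups that did not overlap and a log2 change of 0.13 ± 0.04 (SE; edgeR, adjusted p = 0.964, and 0.124 with the block). TSC22D3, a glucocorticoid-induced leucine zipper gene, had 20.96 ± 0.994 CPM in control and 18.4 ± 1.00 CPM in stretch wells, also without overlap, and a log2 change of -0.18 ± 0.07 (edgeR, adjusted p = 0.9995, and 0.403 with the block). Reads of TSC22D3 may be mixed with those of 1 antisense gene that it overlaps.

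**Figure D4:**
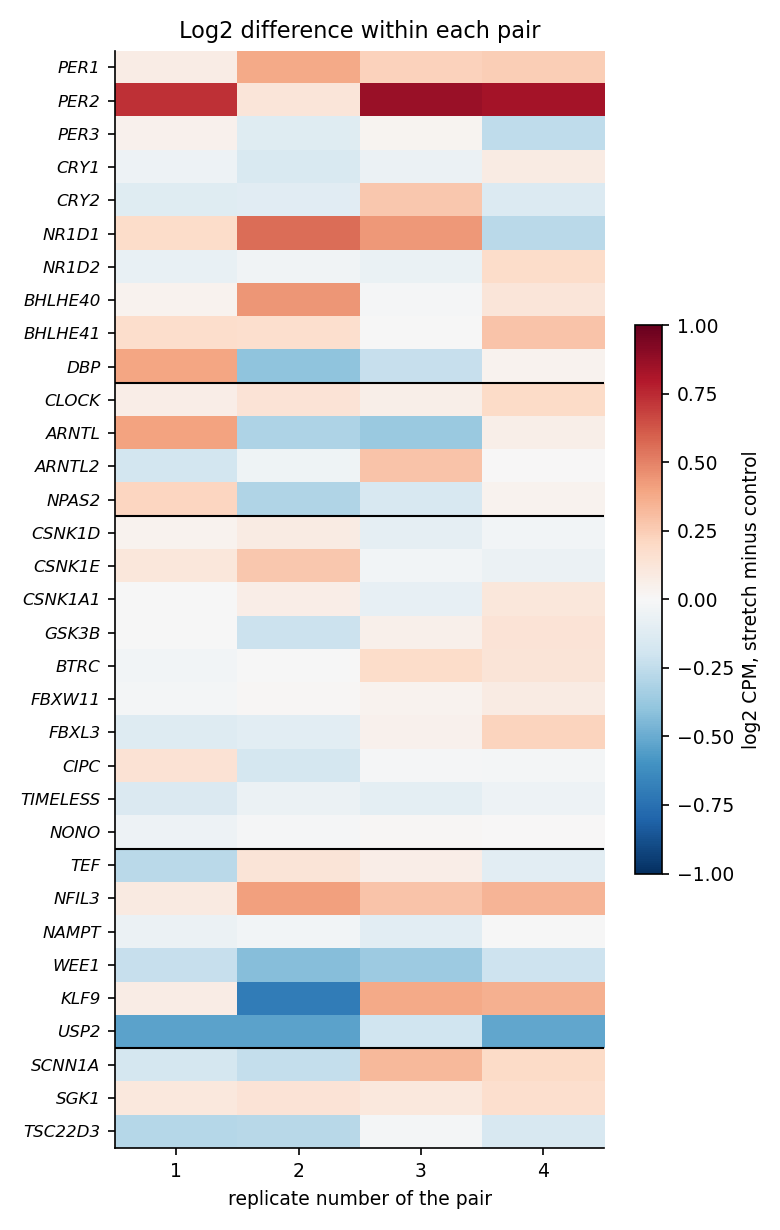
Log2 CPM difference, stretch minus control, within each of the 4 same-numbered pairs (columns) for the 10 clock genes and the tested genes of 4 lists with at least 1 CPM in control wells, 33 genes in all, with black lines between the lists (clock genes, activators, kinases and partners, output factors, renal outputs). Red is higher with stretch. PER2 is high in pairs 1, 3 and 4, and WEE1 is low in all 4.

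PER1 and PER2 are targets of the cyclic AMP factor CREB and of the glucocorticoid receptor, so lists of other targets of each were read beside them. Of the 7 tested genes of the CREB list (targets and the coactivator gene CRTC1), 7 had a log2 change above 0. Over all tested genes this share was 48.2%. The median of 0.65 was the value of PPARGC1A, at 0.65 ± 0.43 (SE) and only 0.363 ± 0.120 CPM in control wells. CRTC1, CREM and PDE4D lay within 1 SE of 0, at 0.023 ± 0.073, 0.067 ± 0.103 and 0.111 ± 0.120. FOS, at 0.70 ± 0.24, and SIK1 and NR4A1 were higher, so the list did not rise evenly. In either edgeR fit 0 passed, while DESeq2 without the block called 2, SIK1 and NR4A1. SIK1, a kinase that restrains CREB signalling and light resetting of the clock, had the smallest p, with 13.6 ± 1.78 CPM in control and 24.1 ± 4.16 CPM in stretch wells, no overlap and a log2 change of 0.82 ± 0.13 (SE; edgeR, adjusted p = 0.0937 unblocked and 0.0940 blocked; DESeq2, adjusted p = 1.13e-05). The block of 2 levels, replicates 1 and 2 against 3 and 4, also called SIK1 (edgeR, adjusted p = 0.0181). NR4A1, an immediate-early nuclear receptor gene, had 14.0 ± 4.58 CPM in control and 34.1 ± 11.0 CPM in stretch wells, with a log2 change of 1.28 ± 0.28 (edgeR, adjusted p = 0.567 unblocked and 0.535 blocked; DESeq2, adjusted p = 0.0191). Of the 7 tested glucocorticoid receptor targets, 3 were above 0 and 4 below, with a median of -0.036. In either edgeR fit 0 passed, while DESeq2 without the block called 1, DUSP1, as it did 0.275% of the tested genes. DUSP1, a phosphatase gene induced by many stimuli, had the smallest p there, with 19.4 ± 3.75 CPM in control and 33.7 ± 6.03 CPM in stretch wells and a log2 change of 0.80 ± 0.15 (edgeR, adjusted p = 0.307 unblocked and 0.115 blocked; DESeq2, adjusted p = 0.000119). It too has 1 antisense gene across it. SGK1 and TSC22D3, described above, also stand on this list. Earlier results of these data already showed immediate-early genes higher with stretch, and the lists were chosen with earlier results known. The directions of FOS, NR4A1, SIK1 and DUSP1, and the count of 7 above 0, are therefore not independent evidence. Whether CREB or the glucocorticoid receptor had a part in the PER values was not tested.

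In 3 of 10 clock genes, the wells numbered 1 and 2 did not overlap those numbered 3 and 4. This is near the share over all tested genes, 20.4% in one direction or the other. The division is known from earlier results of these data and named by no label. In PER3, CRY2 and NR1D2, all 4 wells numbered 1 and 2 were above all 4 wells numbered 3 and 4, across both groups. PER3 separated narrowly, with 4.63 CPM as the lowest of wells 1 and 2 and 4.48 CPM as the highest of wells 3 and 4. CRY2 averaged 9.57 CPM in wells 1 and 2 of both groups and 6.24 CPM in wells 3 and 4, a ratio of 1.53, while the ratio of its stretch to control mean was 0.964. NR1D2 averaged 44.8 and 35.6 CPM, a ratio of 1.26, against 0.998 for strain. PER2 had the opposite pattern, with a ratio of 1.05 between the numbers and 1.56 between the groups. NR1D1 leaned the other way from NR1D2, with 3.61 CPM in wells 1 and 2 and 4.62 CPM in wells 3 and 4, but these wells overlapped. What set the numbers apart cannot be told from the labels.

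The effect of strain was also read within each of these sets of wells. The log2 change of PER2 was 0.45 ± 0.18 (SE) in replicates 1 and 2 and 0.87 ± 0.18 in replicates 3 and 4, with 2 wells a group, and it passed in neither (edgeR, adjusted p = 0.54 and 0.0615). That of PER1 was 0.23 ± 0.09 and 0.24 ± 0.09 (edgeR, adjusted p = 0.544 and 0.462). The difference between the sets was tested as an interaction, in which 0 of the 10 clock genes passed, as did 0% of all tested genes (edgeR, with 0 clock genes in DESeq2 as well). For PER2 the difference between the sets was 0.41 ± 0.26, with a 95% interval of -0.13 to 0.95 (edgeR, adjusted p = 0.937). With 1 well left out, this difference ran from 0.20 to 0.68. At an unadjusted p under 0.05 the interaction held 0 clock genes and 5.72% of all tested genes.

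**Figure D5:**
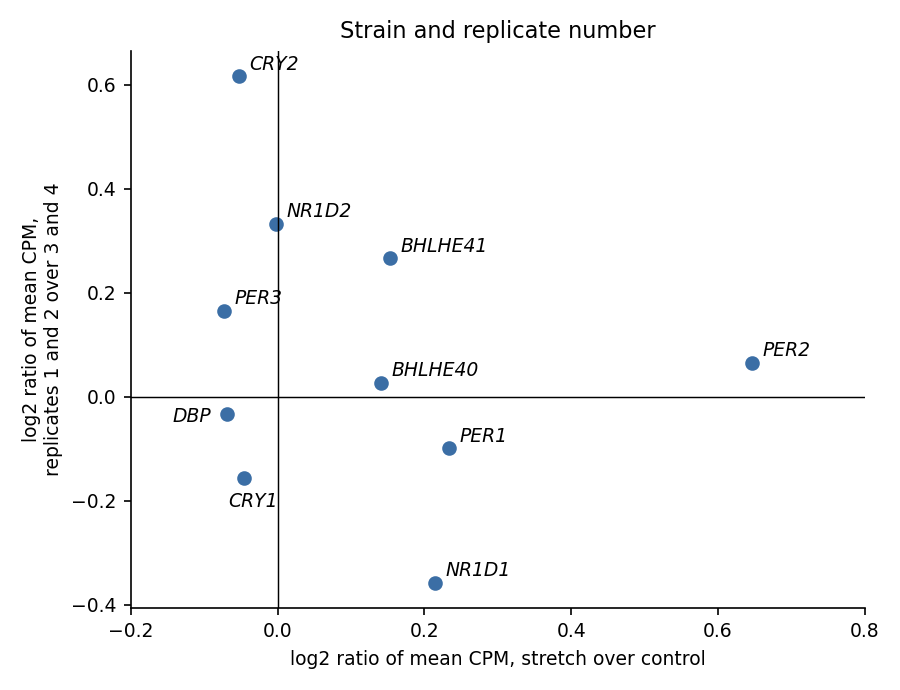
For each clock gene, the log2 ratio of mean CPM in stretch over control wells (horizontal) against the log2 ratio of mean CPM in wells numbered 1 and 2 over those numbered 3 and 4 (vertical). PER2 lies far out on the strain axis at 0.65, and CRY2 far out on the replicate axis at 0.62.

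Neighbouring genes were examined for signals that could share reads or a locus with the clock genes. PER2 overlaps the lncRNA gene LOC119865981 on the opposite strand, with 151 exon bases in common, and that lncRNA was listed at 0 in all 8 wells. HES6, the protein-coding gene 4132 bases from PER2, had a log2 change of 0.02 ± 0.16 (SE), and VAMP2, the gene 2998 bases from PER1, had 0.15 ± 0.14. Neither passed (edgeR, adjusted p = 0.9995 for both). NR1D1 and the thyroid receptor gene THRA lie on opposite strands, 222 bases apart in this annotation, and THRA had a log2 change of 0.11 ± 0.10 (edgeR, adjusted p = 0.9995). DBP lies 176 bases from SPHK2 on the other strand and 300 bases from CA11, with log2 changes of -0.05 ± 0.11 and 0.11 ± 0.53 (edgeR, adjusted p = 0.9995 for both). None of the tested neighbours of the clock genes passed with the block.

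Among 13134 other genes with a mean of at least 1 CPM, those with a profile over the 8 wells nearest to that of PER1 were SDC4, PDLIM1 and LOC106558875. Their root mean square distances from PER1 were 0.046, 0.047 and 0.049 on the log2 scale, where PER1 itself spread by 0.14 around its mean. SDC4, the gene of the heparan sulphate proteoglycan syndecan-4, went from 102 ± 7.78 to 124 ± 6.44 CPM without overlap and passed with the block (edgeR, adjusted p = 0.0023). PDLIM1, which encodes a PDZ and LIM domain protein of actin fibres, went from 103 ± 5.89 to 119 ± 9.52 CPM and passed with the block (edgeR, adjusted p = 0.0265). Nearest to BHLHE40 were PTK2B, CDC42EP1 and LOC119879215, at distances of 0.031, 0.043 and 0.046. Nearest to NR1D1 were TRAPPC14, KCTD13 and BRF2, at 0.107, 0.112 and 0.116. None of these 6 passed in either edgeR fit. With 8 wells and this many candidates, such nearness is a description of these wells only.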

How the data were processed

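The authors deposited raw counts of reads per gene, summed over exons, for 8 libraries. The submitters' processing notes name FastQC 0.11.8, Trim Galore 0.6.5, STAR 2.7.3a and Subread featureCounts. The genome build, strand setting and handling of multi-mapping reads are not given in the sources used here. Of the symbols, 37291 matched the RefSeq gene table of UU_Cfam_GSD_1.0, and 37291 of these had identical start and end there.

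Counts were scaled with TMM factors and filtered with filterByExpr (minimum count 10, minimum total 15), which left 14571 genes. They were tested with edgeR 4.0.16 (glmQLFit with robust estimation, glmQLFTest; R 4.3.3), Benjamini-Hochberg adjusted over all tested genes at 0.05, without a block. A second fit added the replicate number as a block. Same-numbered wells deviated together from their group means (correlations across genes of 0.108 to 0.328), which met the rule of over 0.1 in every pair, although only the wells numbered 1 correlated best with each other; numbers 2 to 4 did not. Nearest profiles used log2 CPM with a prior count of 2. SE is the log2 change divided by the root of F. DESeq2 1.42.0 and limma-voom (limma 3.58.1) were alternatives. Replicate wells differed beyond sampling noise (chi-square per degree of freedom from 5.56 to 26.8). The fits were tested on simulated data, in which 51% of log2 changes of 0.5 were called without the block and 81% with it. The interaction test called 11% of simulated differences of 0.5, so it could miss differences of that size.

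All clock genes were named. From each other list, genes past the threshold with or without the block and the 2 smallest p were named, with overlapping or nearest genes and the 3 nearest profiles of PER1, NR1D1 and BHLHE40. ARNTL, ARNTL2 and the casein kinase genes were added for their roles. The clock genes and lists were chosen with earlier results of these data known. Lists hold 6 activators (a further listed gene is not reported here), 12 kinases and partners, 7 output factors, 8 renal outputs, 8 CREB targets and 8 glucocorticoid receptor targets. Listed genes that matched no symbol in the table were not analysed here.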

Additional observations from a re-analysis of the deposited data

Results flagged for a closer look

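Each group of 4 wells was examined for a well far from the other 3, by the gap to its nearest neighbour over the range of the group, for the 10 clock genes. In 1 of the 20 groups this ratio was above Dixon's 95% critical value, and chance flags about 1 group in 20. The value was that of NR1D1 in stretch replicate 3, at 5.59 CPM, while the other stretch wells had 3.97 to 4.09 CPM. Without that well, the log2 change of NR1D1 in edgeR without the block was 0.081, against 0.21 with all wells.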

How the results depend on the processing

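Without the block, the count of genes called in edgeR was 0 with limma-voom, with size factors from DESeq2, with library sizes alone, with upper-quartile factors and with at least 10 counts in every well, 40 with DESeq2 (1 clock gene, PER2) and 11 without a low-count filter. With the replicate block it was 102 (1 clock gene, PER2), with the block of 2 levels 58 (1, PER2), and within replicates 1 and 2 or 3 and 4 alone 51 and 25 (0 clock genes in each). Combined with the replicate block, limma-voom gave 100 (1 clock gene), DESeq2 145, at least 10 counts in every well 97 (1), size factors from DESeq2 105 (1), library sizes alone 111 (1), upper-quartile factors 112 (1) and no low-count filter 448 (3: PER1, PER2 and BHLHE40). In DESeq2 with the block, only 5 of the 10 clock genes had an adjusted p, and PER2 was not among them. The blocked variants of scaling and filter were chosen after seeing the data. Leaving out 1 well gave 0 to 12 genes and 0 clock genes. Leaving out pairs 1 to 4 in turn from the blocked fit gave 43, 67, 186 and 74 genes and 0, 1, 2 and 0 clock genes. The interaction called 40 genes without a low-count filter and 0 to 47 with 1 well left out, with 0 clock genes throughout.

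PER1, PER2, NR1D1, BHLHE40 and BHLHE41 stayed above 0 in every alternative, PER2 between 0.45 and 0.87 and PER1 between 0.19 and 0.28. NR1D1 ran from 0.081 to 0.39, BHLHE40 from 0.050 to 0.23 and BHLHE41 from 0.046 to 0.26. Where single wells were left out, PER3 ran from -0.11 to 2.6e-04, CRY1 from -0.097 to 0.015, CRY2 from -0.21 to 0.11, NR1D2 from -0.070 to 0.076 and DBP from -0.17 to 0.022. In the blocked fits without pairs 1, 2 and 3, NR1D2 was 0.029, 0.019 and 0.023, and without pair 2 DBP was 0.066. In replicates 3 and 4 alone, CRY1 was 0.013, CRY2 0.052 and NR1D2 0.071. NR1D2, at -0.0022 without the block, was also above 0 with limma-voom (0.0041), upper-quartile factors (8.1e-04), library sizes alone (4.3e-04) and at least 10 counts (0.0013), and in the fits with the replicate block (0.0025), the block of 2 levels (0.0042) and the replicate block combined with DESeq2 (0.0028), limma-voom (0.0027), no filter (0.0044), at least 10 counts (0.0063), size factors from DESeq2 (0.0028), library sizes alone (0.0062) and upper-quartile factors (0.0068). The values of opposite sign to the fit without the block lie within 1 SE of 0, and the cause of the changes in sign was not tested. DBP, at 23 to 40 counts per well, was the clock gene most limited by depth.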
